A study of Mus musculus with 27 samples.

Results

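The genes described here are 10 mouse genes of de novo fatty acid synthesis, namely Acly, Acaca, Acacb, Fasn, Scd1, Scd2, Elovl6, Me1, Srebf1 and Mlxipl. They were chosen by symbol from the expression files, and all 10 were found among the 24825 genes listed for each sample. The files hold polyadenylated RNA of C2C12 cells, an established mouse myoblast line. It was measured in control cells, in cells with retrovirally introduced full-length NFIA, a transcription factor of the nuclear factor I family, and in cells with the Δpro#3 mutant, which lacks a short proline-rich stretch at the C-terminus of NFIA. Each kind of cell was harvested on day 0 and on day 7, the latter both without and with a 4 h exposure to 10 µM forskolin, in triplicate (9 groups, 27 samples). All day 7 cells, controls included, had gone through the same adipogenic medium, with isobutylmethylxanthine, indomethacin, dexamethasone, insulin, T3 and rosiglitazone at the start and insulin, T3 and rosiglitazone after that, so that time and medium cannot be told apart. The NFIA constructs were expressed from a viral promoter, far above the endogenous gene, and the labels do not say whether the replicates of a group came from separate cultures or infections. P-values thus measure the spread between these samples, which may be technical.

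De novo synthesis builds fatty acids from cytosolic acetyl-CoA. ATP citrate lyase (Acly) makes acetyl-CoA from citrate, the acetyl-CoA carboxylases (Acaca, Acacb) turn it into malonyl-CoA, and fatty acid synthase (Fasn) joins these units into palmitate with NADPH, part of which comes from malic enzyme (Me1). Elovl6 then lengthens palmitate to stearate, and the stearoyl-CoA desaturases (Scd1, Scd2) put in a double bond. The transcription factors SREBP-1 (Srebf1), which insulin activates, and ChREBP (Mlxipl), which answers to glucose, are known to drive these genes in liver and fat. Mature adipocytes express the whole pathway strongly, and agents that raise cyclic AMP, such as forskolin, an activator of adenylyl cyclase, are known to oppose lipogenesis in fat cells.

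On the NCBIM37 (mm9) assembly, on which the authors aligned their reads, 4 of the 10 genes lie on chromosome 11. These are Srebf1 (chr11:60012591-60036083, minus strand), Acaca (chr11:83943174-84215153, plus), Acly (chr11:100337667-100389314, minus) and Fasn (chr11:120667254-120685492, minus). Scd2 (chr19:44368166-44381354, plus) and Scd1 (chr19:44468941-44482199, minus) are neighbours on chromosome 19. Acacb (chr5:114596544-114700770, plus) and Mlxipl (chr5:135582761-135614254, plus) lie on chromosome 5, Elovl6 (chr3:129235304-129341413, plus) on chromosome 3 and Me1 (chr9:86474970-86589947, minus) on chromosome 9. The strand given in the files matched the annotation for all 10. Scd1, Scd2 and the relatives Scd3 and Scd4 are close copies of each other, and a fragment that fits more than 1 of them equally well was left out by the authors.

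Since most of these genes were higher with full-length NFIA at each time point, their promoters were read from RefSeq (GRCm38.p6), in windows from 250 bases before to 50 bases after each annotated start. There were 12 such windows for 8 of the genes, with none for Scd1 and Scd2. The 5 letters CCAAT, the box that the factor NF-Y binds, lay on either strand in 7 of the 12 windows, which belonged to Acacb, Acly, Fasn, Me1, Mlxipl and Srebf1, against 37.4% of all 32851 windows. The Sp1 box GGGCGG lay in 5 of 12, against 35.7%. The E-box CACGTG lay in 1 (Mlxipl), against 7.15%, the SREBP letters TCACNCCAC in 1 (Mlxipl), against 1.24%, and CACCCCAC in none, against 2.87%. The NFI half-site TTGGCA lay in 2, both of Mlxipl, against 14.1%, and the full palindrome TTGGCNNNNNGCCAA and the PPAR repeat AGGTCANAGGTCA in none, against 0.0365% and 0.0396%. The 200 bases before the start are shown for 4 of the genes: Fasn, the gene with the most CCAAT boxes, Srebf1 and Mlxipl, the regulators, and Acacb, which responded most to the Δpro#3 mutant at day 7. Mlxipl has 2 windows, both shown, and Srebf1 has 3, of which 1 is shown. Capitals mark the CCAAT boxes, E-boxes, SREBP letters and NFI half-sites on either strand. Where boxes overlap, the capitals run on, as they do for a pair of CCAAT boxes in Fasn and for a CCAAT box with an NFI half-site in the first window of Mlxipl. The SREBP letters lie in its second window.
Fasn, chr11:120824548-120824747, minus strand: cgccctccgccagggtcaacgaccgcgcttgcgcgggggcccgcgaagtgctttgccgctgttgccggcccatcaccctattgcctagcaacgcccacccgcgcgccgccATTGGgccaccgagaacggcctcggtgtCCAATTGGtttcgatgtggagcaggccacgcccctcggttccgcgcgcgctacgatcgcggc
Srebf1, chr11:60210472-60210671, minus strand: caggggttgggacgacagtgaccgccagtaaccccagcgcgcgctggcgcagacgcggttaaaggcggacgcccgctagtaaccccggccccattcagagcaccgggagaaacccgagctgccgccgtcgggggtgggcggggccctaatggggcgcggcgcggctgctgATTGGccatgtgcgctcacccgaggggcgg
Mlxipl, first window, chr5:135089690-135089889, plus strand: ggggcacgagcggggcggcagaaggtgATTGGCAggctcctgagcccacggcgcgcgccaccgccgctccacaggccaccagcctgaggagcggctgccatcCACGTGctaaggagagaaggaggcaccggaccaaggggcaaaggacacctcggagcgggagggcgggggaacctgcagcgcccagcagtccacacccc
Mlxipl, second window, chr5:135106691-135106890, plus strand: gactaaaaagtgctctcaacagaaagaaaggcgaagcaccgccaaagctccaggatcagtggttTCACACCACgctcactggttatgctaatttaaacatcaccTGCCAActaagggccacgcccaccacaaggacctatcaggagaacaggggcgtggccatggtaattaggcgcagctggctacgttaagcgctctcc
Acacb, chr5:114165318-114165517, plus strand: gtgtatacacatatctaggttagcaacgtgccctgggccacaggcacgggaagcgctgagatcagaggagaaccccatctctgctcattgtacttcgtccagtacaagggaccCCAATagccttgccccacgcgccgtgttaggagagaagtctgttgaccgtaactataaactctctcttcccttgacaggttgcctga
In Fasn the CCAAT boxes start 90, 62 and 59 bases before the annotated start. A match is a description of the letters and says nothing of binding in these cells.

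The samples held 9567769 to 27230965 fragments on genes, and values are FPKM, fragments per kilobase of transcript and relative to all fragments of the library. Nfia stood at 225 to 250.2 FPKM in full-length NFIA cells and at 397 to 423 in Δpro#3 cells at day 0, at 457 to 528 and 374 to 480.5 at day 7, and at 497 to 594 and 262 to 344 after forskolin. It was at 0.0885 to 0.879 in 8 of the 9 control libraries and at 7.35 in replicate 2 of the control cells at day 0. The gene's total does not tell both constructs apart. The cells also differed in make-up. The summed FPKM of 11 muscle markers was 12155 to 14119 in control cells at day 7, 2222 to 3115 in full-length NFIA cells and 14464 to 15195 in Δpro#3 cells. The sum of 12 adipocyte markers was 361 to 398, 13605 to 15124 and 634 to 2056, with Ucp1 at 0 in all 9 of these libraries and Lep at 0 in the control and Δpro#3 cells. In bulk samples, fewer adipocytes and less RNA of a gene per cell cannot be told apart, and the part of cell make-up in the differences below was not tested. Replicate 1 of the Δpro#3 cells at day 7, whose adipocyte sum was 2056 against 634 and 746 in replicates 2 and 3, stood apart and is left out in turn below.

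**Figure D1:**
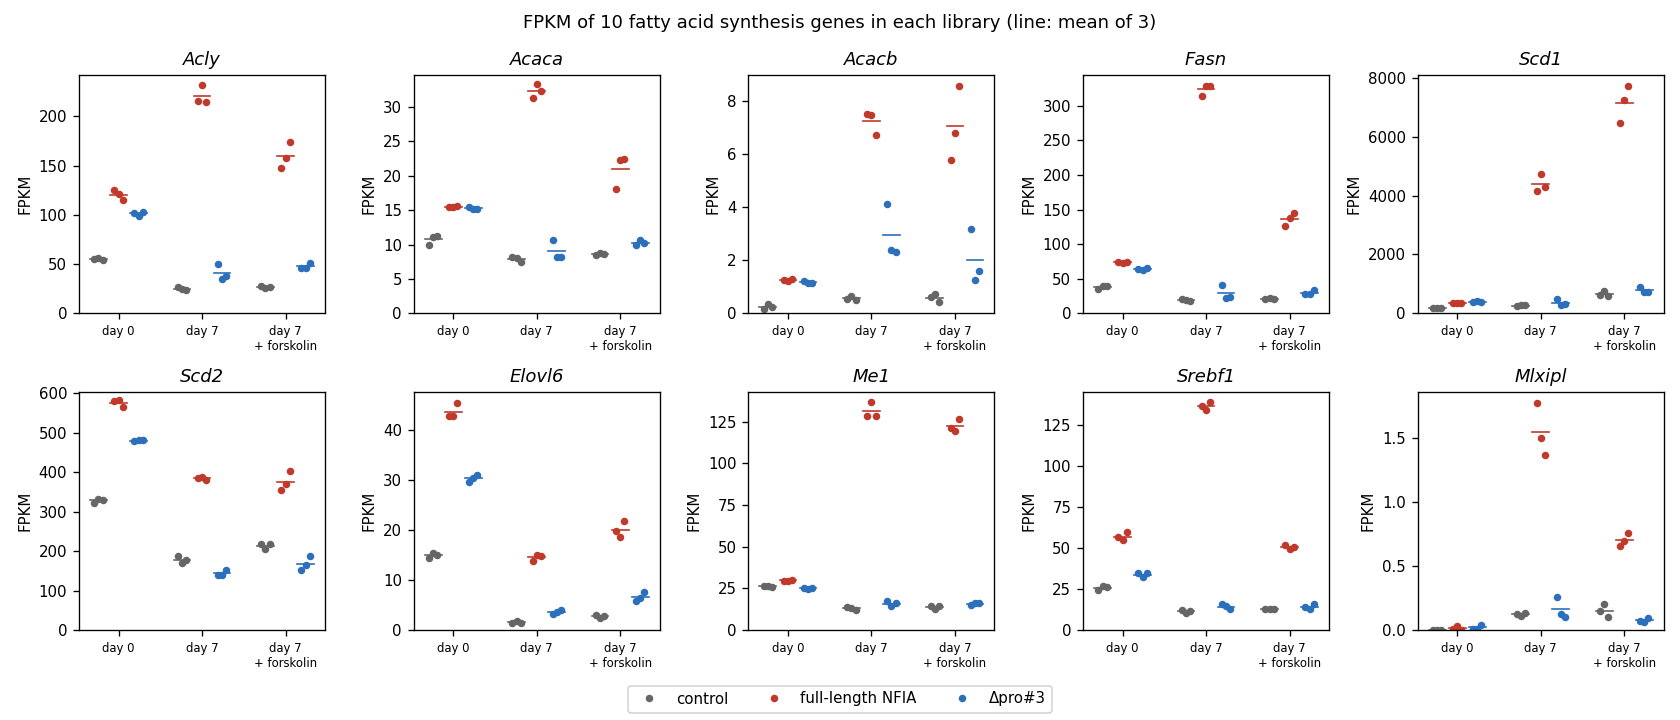
FPKM of the 10 genes (vertical axes, linear, from 0) in each of the 27 libraries, by time point (horizontal axes) and kind of cell (colour); points are libraries and lines are means of 3. In full-length NFIA cells Scd1 rises to 4164 to 4732 FPKM at day 7, whereas Elovl6 and Scd2 are highest at day 0.

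Already at day 0, before any adipogenic medium, the pathway stood higher with full-length NFIA. Of the 8 genes with a mean of 0.5 FPKM or more in both groups, 8 rose, against 37.7% of all 12105 genes tested (higher, adjusted p under 0.05, limma with Benjamini-Hochberg adjustment over all genes tested, as in all comparisons here). None rose more than 3-fold in FPKM + 1, against 2.46% of all genes; none did so at an unadjusted p under 0.05 either, and limma-voom on fragments put 1, Acacb, past that fold. Their median log2 fold change was 0.97, against 0.01 over all genes. Acacb passed the filter on low values only through the cells with a construct and had to differ from control cells, so it is left out of these counts at day 0.

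Of the enzymes that make and use acetyl-CoA, Acly was at 55.1, 56.1 and 54.6 FPKM in the control replicates and at 125, 121 and 115 with full-length NFIA, a log2 change of 1.11 ± 0.03 (SE, adjusted p = 2.6e-10). Fasn was at 35.8, 39.1 and 39.9 FPKM in control cells and at 74.4, 73.5 and 73.7 with full-length NFIA (log2 change 0.93 ± 0.04, adjusted p = 3.8e-09). The groups were far apart and their replicates close together. The carboxylases differed in level. Acaca, the cytosolic form that feeds synthesis, stood at 9.99 to 11.2 FPKM in control cells and 15.4 to 15.5 with full-length NFIA, whereas Acacb, the form at the mitochondrial surface whose malonyl-CoA restrains fatty acid oxidation, rose from 0.164, 0.355 and 0.235 to 1.26, 1.205 and 1.30 FPKM, a ratio of the means of 4.997.

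Of the enzymes that modify palmitate, Elovl6 changed most, from 14.4, 15.5 and 15.1 to 42.9, 42.8 and 45.6 FPKM (log2 change 1.48 ± 0.04, adjusted p = 5.6e-11). Scd1 stood at 174, 180 and 181 FPKM in control cells and at 355, 362 and 358 with full-length NFIA. Scd2 was the most abundant of the 10 genes at this time, at 322, 333 and 331 FPKM in control cells and 580.4, 582 and 564 with full-length NFIA. Srebf1 rose from 24.5, 26.8 and 26.5 to 56.7, 54.9 and 59.5 FPKM (log2 change 1.11 ± 0.05, adjusted p = 2.8e-09). Me1 differed least, at 25.9 to 26.8 FPKM in control cells and 29.5 to 30.3 with full-length NFIA, though the ranges did not meet. Mlxipl was near the detection limit and was not tested at day 0. It had 0 fragments in each of the 3 control libraries, which allows up to 0.0297 to 0.0341 FPKM (3 fragments, counting error only), and 0 to 4 fragments in the 6 others.

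Most of these genes also stood higher with the Δpro#3 mutant at day 0. Of the same 8 genes, 7 rose, against 32.5% of all genes, and Me1 fell, against 29.7%. None rose more than 3-fold, against 0.859% of all genes; none did at an unadjusted p under 0.05, and limma-voom again put Acacb past that fold. Scd1 was higher with the mutant than with the full-length protein, at 395, 412 and 391 FPKM. Acacb stood at 1.24, 1.16 and 1.15 FPKM and Acaca at 15.5, 15.2 and 15.1, ranges that overlapped those of full-length NFIA cells (log2 difference -0.05 ± 0.07 and -0.02 ± 0.04, adjusted p = 0.55 and 0.72). The fall of Me1 was small, to 25.2, 25.0 and 25.1 FPKM (log2 change -0.07 ± 0.03, adjusted p = 0.04), and it was lost when any of 7 libraries was left out and by limma-voom (adjusted p = 0.058).

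Set directly against full-length NFIA at day 0, the mutant was lower for 6 of the 9 genes (Acly, Fasn, Scd2, Elovl6, Me1 and Srebf1), against 31.9% of all genes, and higher for Scd1, against 33.4%. The 3 comparisons of a time point share their samples. The largest gap was in Srebf1, which stood at 34.9, 32.1 and 34.6 FPKM with the mutant (log2 difference -0.73 ± 0.05, adjusted p = 1.5e-07). Elovl6 came next, at 29.7, 30.5 and 31.1 FPKM (-0.51 ± 0.04, adjusted p = 5.3e-07). The muscle markers moved with the construct at this time too, with a sum of 1634 to 1736 FPKM in control cells, 143 to 151 with full-length NFIA and 420.4 to 428 with the mutant. So did the adipocyte markers, with a sum of 40.5 to 49.1 FPKM in control cells, 432 to 459 with full-length NFIA and 318 to 335 with the mutant. Only 4 of the 12 adipocyte markers reached a mean of 0.5 FPKM in the day 0 test, so this sum rests on few genes. The part of both sets of markers in the day 0 differences was not tested.

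At day 7, 9 of 9 genes stood above control cells with full-length NFIA, against 31.3% of the 12324 genes tested, and 8 of them (all but Scd2) more than 3-fold, against 4.87%. The median log2 fold change of the 9 genes was 3.09, against -0.08 over all genes, and in none did the 3 NFIA libraries overlap the controls. Mlxipl passed the filter on low values at day 7 only through the full-length NFIA cells and had to differ, so it is left out of the counts that involve them.

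**Figure D2:**
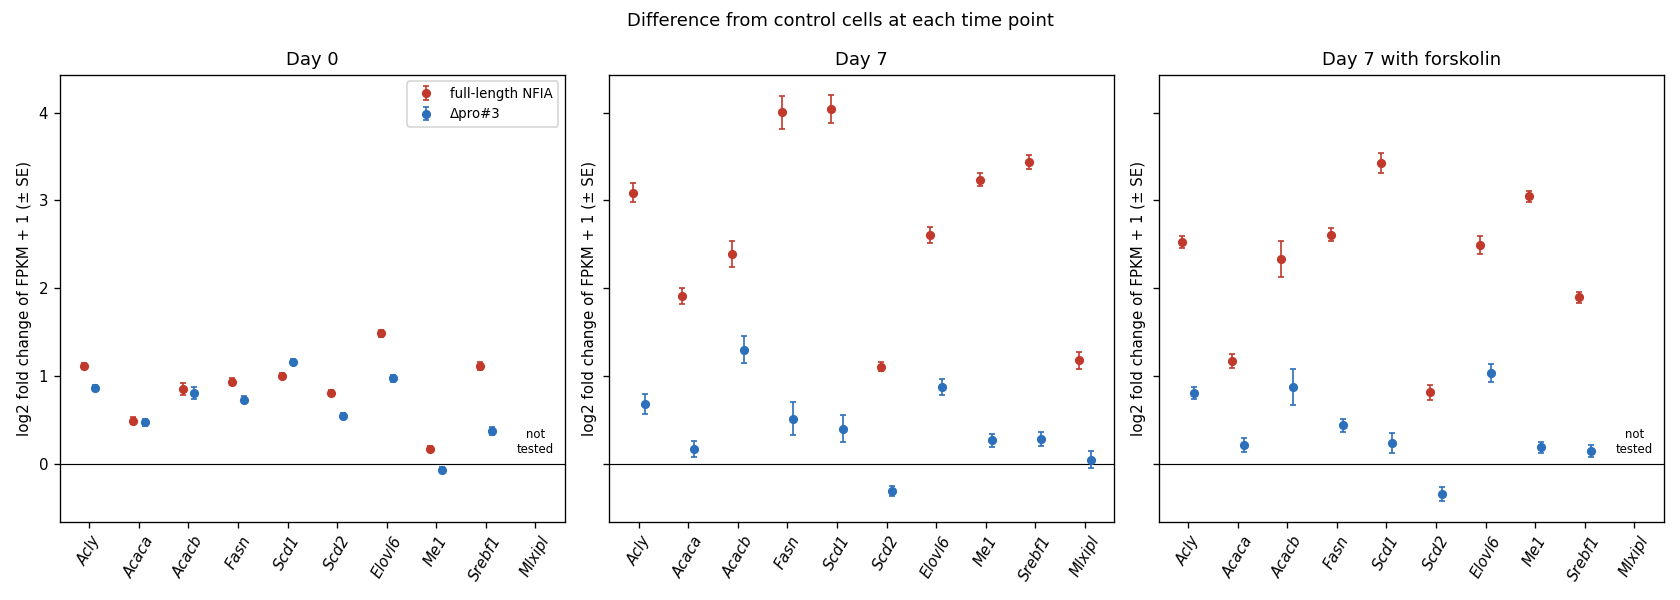
Log2 fold change of FPKM + 1 against control cells (vertical axis, ± SE of the fit) for each gene at each time point; Mlxipl was tested at day 7 only. Full-length NFIA (red) lies above the Δpro#3 mutant (blue) for every gene at day 7, with Scd1 at 4.04 against 0.40.

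Scd1 and Fasn differed most at day 7. Scd1 was at 249.0, 273 and 275 FPKM in control cells and at 4164, 4732 and 4280.2 with full-length NFIA, a log2 change of 4.04 ± 0.16 (adjusted p = 7.2e-09). There it took 2.01% to 2.29% of all fragments of a library, against 0.12% to 0.133% in control cells. Fasn went from 20.7, 19.1 and 18.1 to 315, 329 and 329 FPKM (log2 change 4.00 ± 0.19, adjusted p = 2.5e-08). Each NFIA library held over 10 times the level of every control library for both genes.

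The suppliers of acetyl-CoA and NADPH were higher as well. Acly was at 26.7, 25.2 and 23.4 FPKM in control cells and 215, 232 and 215 with full-length NFIA (log2 change 3.09 ± 0.11, adjusted p = 3.6e-09). Me1, whose log2 change at day 0 was 0.17 ± 0.03, was at 13.7, 13.2 and 12.2 against 128, 137 and 128 FPKM (3.24 ± 0.07, adjusted p = 1.9e-10). Of the carboxylases, Acaca was at 7.44 to 8.26 FPKM in control cells and 31.4 to 33.4 with full-length NFIA (1.91 ± 0.09), and Acacb at 0.503 to 0.665 and 6.73 to 7.502 (2.39 ± 0.15). The ratio of Acaca to Acacb, on the per-length scale, was 12.1 to 15.2 in control cells and 4.18 to 4.81 with full-length NFIA. Acaca thus stayed the more abundant, by a smaller margin.

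Elovl6 and Scd2 had another profile. Elovl6 was at 1.35, 1.82 and 1.53 FPKM in control cells and 13.8, 15.1 and 14.8 with full-length NFIA (2.60 ± 0.09, adjusted p = 2.5e-09), both far below their day 0 levels. Scd2 was at 187, 170.2 and 177 FPKM against 386, 387 and 379.9 (1.11 ± 0.06). Of the regulators, Srebf1 was at 12.5, 10.7 and 11.9 FPKM in control cells and 136, 134 and 139 with full-length NFIA (3.44 ± 0.08, adjusted p = 2.6e-10). Mlxipl was at 0.124, 0.112 and 0.138 FPKM, from 7, 7 and 6 fragments, in control cells and at 1.77, 1.503 and 1.37, from 63, 115 and 58 fragments, with full-length NFIA. On the log2 scale of FPKM + 1 this was 1.18 ± 0.09, which understates a change at such low levels; the ratio of the mean FPKM was 12.4.

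With the Δpro#3 mutant, the day 7 levels differed from those of control cells by less than with full-length NFIA. Of the 9 genes, 6 rose against control cells (Acly, Acacb, Fasn, Elovl6, Me1 and Srebf1), against 21.3% of all genes, and Scd2 fell, against 27.5%. None rose more than 3-fold in FPKM + 1, against 0.933%, nor at an unadjusted p under 0.05. Acacb was the gene with the largest rise, at 4.14, 2.37 and 2.32 FPKM (log2 change 1.30 ± 0.15, adjusted p = 8.7e-05). The ratio of its mean FPKM was 5.16, and limma-voom on fragments and a pseudocount of 0.1 put it past 3-fold (log2 change 2.23 and 2.14). Elovl6 rose to 3.31, 3.72 and 4.06 FPKM (0.87 ± 0.09) and Acly to 50.01, 35.4 and 38.1 FPKM (0.68 ± 0.11). Srebf1 was at 16.0, 14.5 and 12.8 FPKM (0.28 ± 0.08, adjusted p = 0.016), a call lost without control replicate 2 (adjusted p = 0.062). Scd2 fell to 139, 139 and 153 FPKM (-0.31 ± 0.06, adjusted p = 0.0014).

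Fasn and Scd1 with the mutant were highest in replicate 1, the library with the high adipocyte sum. Fasn was at 41.8 FPKM there and at 22.5 and 23.2 in replicates 2 and 3, with a log2 change against control of 0.51 ± 0.19 (adjusted p = 0.043), and 0.23 without replicate 1 (adjusted p = 0.013). It was lost without any 1 of the control or full-length NFIA libraries of day 7 (adjusted p = 0.056 to 0.12). Scd1 was at 475, 282 and 321 FPKM, a log2 difference of 0.40 ± 0.16 that did not pass the test (adjusted p = 0.059), and 0.18 without replicate 1 (adjusted p = 0.11). It passed without replicate 2 (0.56, adjusted p = 0.013), under median-ratio scaling (adjusted p = 0.039), with a minimum of 5 FPKM (0.049) and by limma-voom (0.027). Acaca (10.7, 8.22 and 8.27 FPKM) and Mlxipl (0.262, 0.123 and 0.106 FPKM) overlapped the control range and did not pass either.

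Set against full-length NFIA at day 7, the mutant was lower for 9 of 9 genes, against 29.4% of all genes, and more than 3-fold lower for 7, against 3.70% (not Acacb and Scd2). The log2 difference was -3.64 ± 0.16 for Scd1, -3.49 ± 0.19 for Fasn, -3.16 ± 0.08 for Srebf1 and -2.97 ± 0.07 for Me1. It was -1.09 ± 0.15 for Acacb, the smallest of the 9. The ranges of Nfia in these groups, given above, overlapped. At day 0 Nfia was higher with the mutant and after forskolin lower, with no overlap.

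The balance of both desaturases moved with time and construct. On the per-length scale, the ratio of Scd1 to Scd2 was 0.539 to 0.547 in control cells, 0.611 to 0.635 with full-length NFIA and 0.813 to 0.856 with the mutant at day 0. At day 7 it was 1.33 to 1.602, 10.8 to 12.2 and 2.03 to 3.42, and after forskolin 2.79 to 3.68, 18.2 to 19.5 and 3.88 to 5.83. Scd2 was thus the more abundant at day 0 in every library and Scd1 in every later one. The ratio of Scd1 to Fasn overlapped among the kinds of cells at day 7, at 12.01 to 15.2 in control cells, 13.0 to 14.4 with full-length NFIA and 11.4 to 13.8 with the mutant. At day 0 it was 4.53 to 4.85, 4.77 to 4.93 and 5.92 to 6.60, with the mutant apart from the others. After forskolin it was 28.2 to 34.8, 51.1 to 53.1 and 21.9 to 31.5, with full-length NFIA apart from the others.

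**Figure D3:**
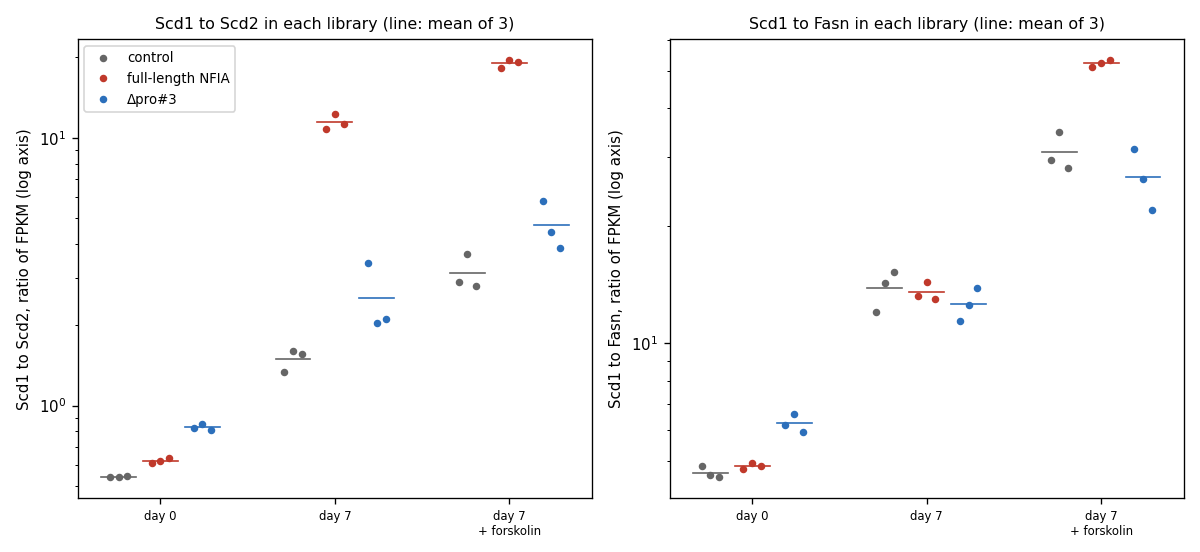
Ratio of the FPKM of Scd1 to Scd2 and of Scd1 to Fasn (vertical axes, logarithmic) in each library, by time point and kind of cell; points are libraries and lines are means of 3. The Scd1 to Scd2 ratio reaches 18.2 to 19.5 in full-length NFIA cells with forskolin, and the Scd1 to Fasn ratio overlaps among all 3 kinds of cells at day 7 without it.

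From day 0 to day 7, most of the genes fell in control cells. Of the 8 genes with a mean of 0.5 FPKM or more at both times, 7 fell, against 42.7% of the 12408 genes tested, and Scd1 rose, against 36.0%. Acacb, below that level in control cells at day 0, passed the filter through other groups and is left out of this count. The markers moved over the same days. The muscle sum went from 1634 to 1736 FPKM up to 12155 to 14119 in control cells, from 143 to 151 up to 2222 to 3115 with full-length NFIA and from 420.4 to 428 up to 14464 to 15195 with the mutant, and the adipocyte sums given above were higher at day 7 than at day 0 in every library of all 3 kinds of cells. Their part in the changes from day 0 to day 7 was not tested. The summed FPKM of the 10 genes in control cells went from 679 ± 13.8 to 523 ± 4.21 (SD, n = 3). Elovl6 fell furthest, from 14.4 to 15.5 FPKM down to 1.35 to 1.82 (log2 change -2.64 ± 0.07, adjusted p = 2.1e-15). Scd2 fell by 0.88 ± 0.04, Acly by 1.11 ± 0.09 and Srebf1 by 1.09 ± 0.07. Scd1 rose by 0.57 ± 0.12 (adjusted p = 0.00042). Acacb passed with a log2 change of 0.33, a call lost without control replicate 1 of day 0 or replicate 2 of day 7 (adjusted p = 0.078 and 0.071).

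In full-length NFIA cells 7 genes rose, against 33.2%, and 4 of them more than 3-fold (Acacb, Fasn, Scd1 and Me1), against 5.38%. Scd1 rose by 3.61 ± 0.12 on the log2 scale, Fasn by 2.12 ± 0.15, Me1 by 2.10 ± 0.05 and Acacb by 1.87 ± 0.12. Only Scd2 and Elovl6 fell, against 46.5% of all genes, by 0.58 ± 0.04 and 1.52 ± 0.07. The change differed from that of control cells for 8 of 8 genes, again without Acacb, each in the direction of a higher change with NFIA, against 31.1% of all genes. It differed least for Scd2 (difference of log2 changes 0.30 ± 0.06, adjusted p = 0.00027) and most for Fasn (3.07 ± 0.21) and Me1 (3.07 ± 0.08).

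**Figure D4:**
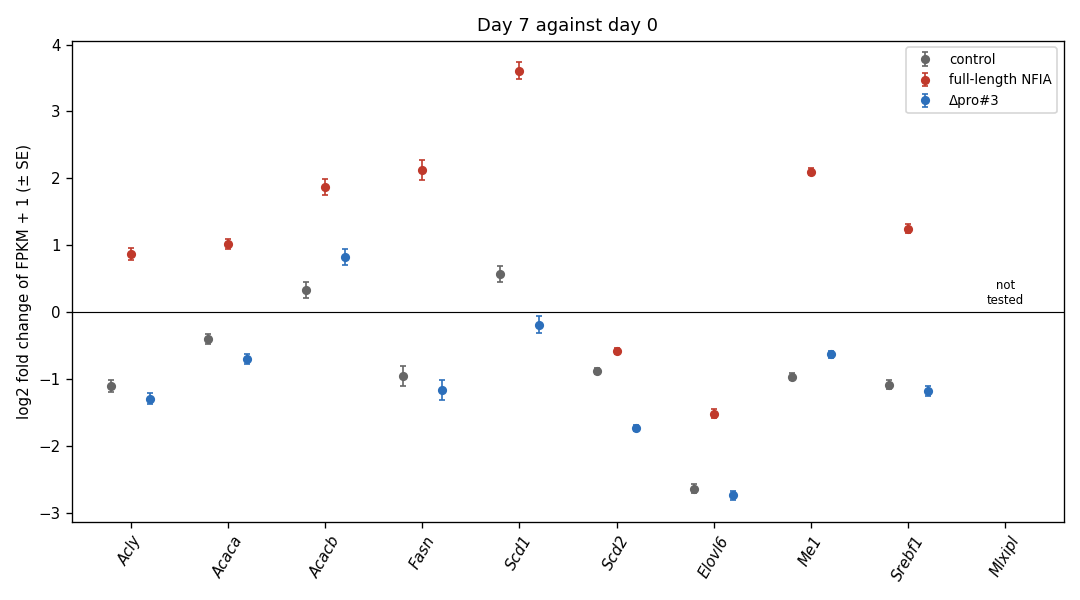
Log2 fold change of FPKM + 1 from day 0 to day 7 (vertical axis, ± SE) for each gene and kind of cell; Mlxipl was not tested in this fit. Elovl6 and Scd2 lie below 0 in all 3 kinds of cells, and Fasn, Me1, Acly, Acaca and Srebf1 lie above 0 with full-length NFIA only.

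In Δpro#3 cells 7 genes fell, against 46.7%, and Acacb rose, against 32.8% of all genes. The median of all genes was at -0.11 in these cells and in full-length NFIA cells, and at -0.06 in control cells. Scd2 went from 478 to 481 FPKM down to 139 to 153 (log2 change -1.73 ± 0.04) and Elovl6 fell by 2.74 ± 0.07. Scd1 did not pass the test (-0.19 ± 0.12, adjusted p = 0.17), but did so without replicate 1 of day 7 (-0.41, adjusted p = 2e-05). The change in Δpro#3 cells was below that in full-length NFIA cells for 9 of 9 genes, against 29.5%. Compared with control cells, over the 8 genes without Acacb, it was lower for Acaca, Scd1 and Scd2, against 25.9%, and higher for Me1, against 18.9%. Acacb passed as higher too, but it was below 0.5 FPKM in control cells at day 0 and entered the fit through other groups. Those for Acaca (-0.30 ± 0.10, adjusted p = 0.024) and Acacb (0.49 ± 0.17, adjusted p = 0.027) were both lost without replicate 1 of the control cells at day 7 (adjusted p = 0.057 and 0.051), which left Me1, Scd1 and Scd2. Without replicate 1 of the Δpro#3 cells at day 7, 7 genes passed, Acacb among them, with Acly at -0.33 (adjusted p = 0.0016) and Fasn at -0.50 (adjusted p = 3.7e-05) added. That for Acaca was also lost under median-ratio scaling (adjusted p = 0.075) and without control replicate 1 of day 0 or Δpro#3 replicate 2 or 3 of day 7, and that for Acacb without control replicate 2 or Δpro#3 replicate 2 or 3 of day 0 or control replicate 3 of day 7. Acacb was at 0.24 with a pseudocount of 0.1 (adjusted p = 0.53) and at -0.04 by limma-voom (adjusted p = 0.93).

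With forskolin, genes of the pathway moved in both directions in full-length NFIA cells. Of the 9 genes tested over the 18 day 7 samples, 4 fell (Acly, Acaca, Fasn and Srebf1), a share close to the 41.5% of all 12245 genes tested that fell, and 2 rose (Scd1 and Elovl6), against 13.9%. The median of all genes was itself at -0.15. Srebf1 changed most, from 136, 134 and 139 FPKM to 51.7, 49.4 and 50.6 (log2 change -1.41 ± 0.07, adjusted p = 3e-10). Fasn went from 315, 329 and 329 to 126, 139 and 145 FPKM (-1.24 ± 0.15, adjusted p = 5e-06). Acaca fell to 18.04, 22.3 and 22.4 FPKM (-0.61 ± 0.09) and Acly to 147, 158 and 174 (-0.47 ± 0.10).

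In the same libraries Scd1 rose to 6459, 7233 and 7723 FPKM (log2 change 0.70 ± 0.15, adjusted p = 0.00074), 3.12% to 3.74% of all fragments, and Elovl6 to 19.9, 18.7 and 21.9 FPKM (0.44 ± 0.10, adjusted p = 0.0012). No library with forskolin overlapped those without for these 6 genes. Me1 (121, 119 and 127 FPKM), Scd2 (354, 371 and 402) and Acacb (5.79, 6.80 and 8.57) did not pass the test. Mlxipl, not tested in this fit for its low mean, was at 0.660, 0.693 and 0.761 FPKM, from 36, 45 and 43 fragments, all below the 1.37 to 1.77 without forskolin.

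**Figure D5:**
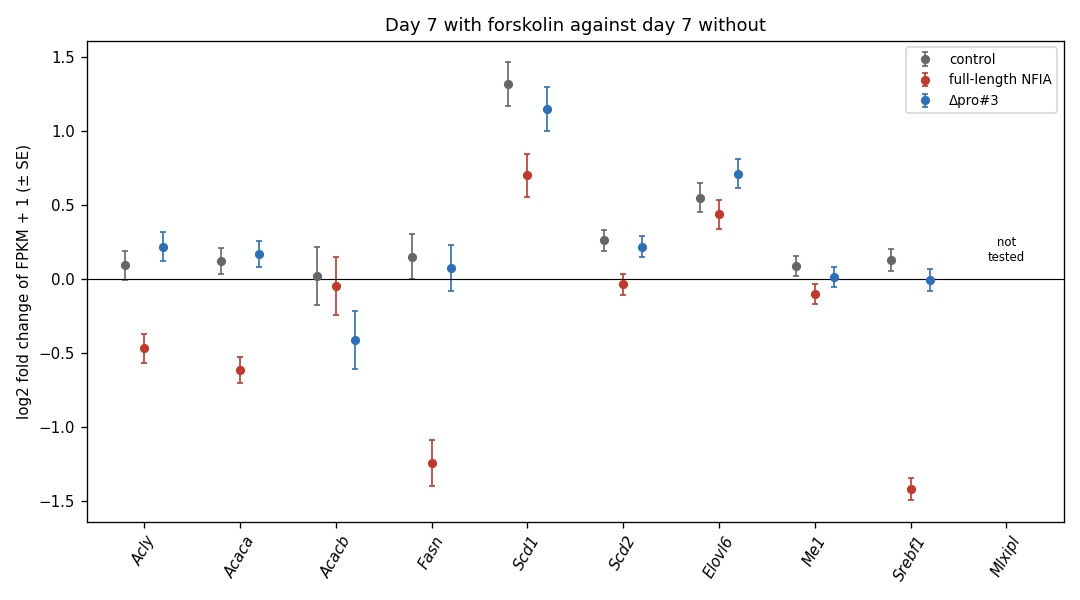
Log2 fold change of FPKM + 1 on forskolin at day 7 (vertical axis, ± SE) for each gene and kind of cell; Mlxipl was not tested in this fit. Srebf1 and Fasn lie near -1.41 and -1.24 with full-length NFIA and near 0 in the other cells, and Scd1 and Elovl6 lie above 0 in all 3.

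In control cells 3 genes rose with forskolin, namely Scd1, Scd2 and Elovl6, against 7.05% of all genes. Scd1 went from 249.0 to 275 FPKM up to 632, 754 and 607 (log2 change 1.31 ± 0.15, adjusted p = 6.3e-06). Elovl6 rose to 3.05, 2.38 and 2.83 FPKM (0.55 ± 0.10) and Scd2 to 218, 205 and 217 FPKM (0.26 ± 0.07, adjusted p = 0.014), a call lost without control replicate 2 of day 7 or replicate 1 with forskolin (adjusted p = 0.065 and 0.054). Fasn stood at 21.4, 21.6 and 21.6 FPKM and Srebf1 at 12.8, 13.0 and 12.8 with forskolin. Neither passed the test, though for both genes every control library with forskolin lay above every control library of day 7 without it. In Δpro#3 cells 3 genes rose as well, again Scd1, Scd2 and Elovl6, against 11.9%. Scd1 rose to 884, 733 and 726 FPKM (1.15 ± 0.15, adjusted p = 1.6e-05) and Elovl6 to 5.87, 6.55 and 7.71 (0.71 ± 0.10). Without replicate 1 of the Δpro#3 cells at day 7, 5 genes passed in place of 3, with Acly at 0.36, Acaca at 0.28 and Fasn at 0.36 added and Scd2 lost (0.20, adjusted p = 0.078). Scd2 was also lost without replicate 2 of those cells or replicate 3 with forskolin (adjusted p = 0.071 and 0.13), and with the 2 groups alone (0.098). The adipocyte markers moved in Δpro#3 cells too. Of 10 tested, 7 fell with forskolin, against 23.9% of all genes, with a median log2 change of -1.04, and 1 rose. Without replicate 1 of day 7, 3 fell, against 18.4%, with a median of -0.56, and 1 rose. The sum of the markers was 2056, 634 and 746 FPKM without and 920, 555 and 590 with forskolin, and their part in the response was not tested.

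The response itself differed between kinds of cells. Full-length NFIA minus control was lower for 6 of 9 genes (Acly, Acaca, Fasn, Scd1, Scd2 and Srebf1), against 21.5% of all genes. The difference of log2 changes was -1.55 ± 0.10 for Srebf1 (adjusted p = 3.9e-08) and -1.39 ± 0.22 for Fasn (adjusted p = 0.00017). For Scd1 (-0.62 ± 0.21) and Scd2 (-0.29 ± 0.10) it was lost under median-ratio scaling (adjusted p = 0.075 and 0.12). Without any of 7 of the 12 libraries of these groups that for Scd1 was lost (adjusted p up to 0.089), and without any of 9 that for Scd2 (up to 0.081). The mutant minus full-length NFIA was higher for 4 of 9 genes (Acly, Acaca, Fasn and Srebf1), against 15.8%, with 1.41 ± 0.11 for Srebf1 and 1.32 ± 0.22 for Fasn. Without replicate 1 of the Δpro#3 cells at day 7, Scd1 passed as well (0.67, adjusted p = 0.0052). The mutant minus control passed for 0 of 9 genes in either direction, against 4.97% of all genes, with 0 also at an unadjusted p under 0.05 and 0 by limma-voom. The differences ranged from -0.43 ± 0.28 for Acacb to 0.16 ± 0.14 for Elovl6.

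After forskolin, full-length NFIA still stood above control cells for 9 of 9 genes, against 25.5% of the 12121 genes tested, and more than 3-fold for 7, against 4.25%. The all-gene median was at -0.17. Scd1 differed by 3.43 ± 0.12, Me1 by 3.05 ± 0.06 and Fasn by 2.61 ± 0.07. The mutant stood above control cells for 6 genes (Acly, Acaca, Acacb, Fasn, Elovl6 and Me1), against 19.5%, and below for Scd2, against 27.1%. Acacb was at 3.16, 1.26 and 1.60 FPKM against 0.633, 0.729 and 0.417 in control cells. Scd1 (0.23 ± 0.12, adjusted p = 0.12) and Srebf1 (0.14 ± 0.07, adjusted p = 0.098) did not pass, though Srebf1 did under median-ratio scaling (adjusted p = 0.032) and without Δpro#3 replicate 2 (0.029). The calls of Acaca (0.22 ± 0.08) and Me1 (0.19 ± 0.06) were lost without any control or Δpro#3 library and without control replicate 2 or Δpro#3 replicate 2 or 3, respectively. Against full-length NFIA the mutant was lower for 9 of 9 genes, against 24.2%, and more than 3-fold for 5 (Acly, Fasn, Scd1, Me1 and Srebf1), against 3.31%. The all-gene median of that comparison was at 0.12.

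Over the 9 groups, the genes differed in which group stood highest. Acly, Acaca, Acacb, Fasn, Me1, Srebf1 and Mlxipl were highest in full-length NFIA cells at day 7 without forskolin, for all but Acacb with no overlap with the group that came next. The highest group mean of Fasn was 16.8 times the lowest, that of Srebf1 11.7, of Me1 10.1, of Acly 8.79 and of Acaca 4.09 times, the lowest group being control cells at day 7 in each. Scd1 was highest in full-length NFIA cells with forskolin (40.1 times the control cells at day 0). Scd2 and Elovl6 were highest in full-length NFIA cells at day 0, with Δpro#3 cells at day 0 next and no overlap. Their lowest groups were Δpro#3 cells (Scd2) and control cells (Elovl6) at day 7. In the middle of these orders many neighbours overlapped. For Acly and Me1 the Δpro#3 cells at day 7 with and without forskolin overlapped. For Scd1 the Δpro#3 and the control cells with forskolin overlapped, and so did the Δpro#3 cells at day 7 with those at day 0 and with full-length NFIA cells at day 0.

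Pearson's r of log2(FPKM + 1) over the 27 samples ranged from 0.085 (Elovl6 with Mlxipl) to 0.99 (Acaca with Fasn) over the 45 pairs of these genes, with a median of 0.76. These samples share groups, so r describes the groups above all. Outside the 10 genes, among 11573 genes with a mean of 1 FPKM or more, the most alike to Fasn were Aacs, the cytosolic acetoacetyl-CoA synthetase (r = 0.98), Lpcat3, which puts polyunsaturated chains into phospholipids (0.98), and Aco1 (0.98). For Scd1 they were Gpat3, a glycerol-3-phosphate acyltransferase (0.97), Scp2, the sterol carrier protein (0.97), and Car12 (0.97). For Acacb they were Gsn (0.98), Mgll, which splits monoacylglycerols (0.97), and Maob (0.97). For Mlxipl they were Dolk (0.98), Coasy, which makes coenzyme A (0.98), and Pnpla3, a lipid droplet protein (0.98).

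The genes around the pathway were taken from fixed lists. Of 12 genes that supply cytosolic acetyl-CoA, citrate and NADPH, 8 rose, against 31.3% of all genes, and 1 fell, against 41.1%, with full-length NFIA at day 7, with a median log2 change of 1.52 against -0.08 over all genes. G6pdx, which opens the pentose phosphate pathway to NADPH, rose by 2.96 ± 0.10 and Slc25a1, the mitochondrial citrate carrier, by 2.58 ± 0.09. With the mutant 9 rose, against 21.3%, and 2 fell, against 27.5%, with a median of 0.33, and both genes rose, by 0.50 and 0.33. At day 0, 9 rose and 2 fell with full-length NFIA, against 37.7% and 35.6%, and 8 rose and 3 fell with the mutant, against 32.5% and 29.7%. On forskolin in full-length NFIA cells 1 rose and 9 fell, against 13.9% and 41.5%, with a median of -0.29 against -0.15 over all genes.

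Of 14 further elongation and desaturation genes tested at day 7 (of 17 in the files), 10 rose and 2 fell with full-length NFIA, against 31.3% and 41.1% of all genes, with a median of 0.57. Of the 14, Scd3 and Scd4 were below 0.5 FPKM in control and Δpro#3 cells, passed the filter only through full-length NFIA cells and had to differ there. The counts and median above include both, and a count over the 12 genes that reached 0.5 FPKM in control cells was not made. For Scd3, a close relative of Scd1, the log2 change of 3.48 ± 0.09 is a description only, for the same reason. Hacd2, a dehydratase of the elongation cycle, rose by 2.17 ± 0.09. With the mutant neither Scd3 nor Hacd2 passed (0.10 and 0.05, adjusted p = 0.37 and 0.65). With the mutant 5 rose and 2 fell, against 21.3% and 27.5%, with a median of 0.02.

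Of 21 regulators and modifiers of lipogenesis tested, 13 rose and 4 fell with full-length NFIA at day 7, against 31.3% and 41.1% of all genes, with a median of 0.23. Nr1h3, the liver X receptor alpha, which turns on Srebf1, rose by 4.12 ± 0.25, and Insig1, which holds SREBP in the endoplasmic reticulum and is itself a target of it, by 3.93 ± 0.08. With the mutant 8 rose and 3 fell, against 21.3% and 27.5%, with Nr1h3 at 0.74 and Insig1 at 1.26. On forskolin in full-length NFIA cells 5 of the 21 rose and 12 fell, against 13.9% and 41.5%, with a median of -0.25 against -0.15 over all genes. Insig1 rose there by 0.43 ± 0.08, in the libraries in which Srebf1 fell.

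Mitochondrial fatty acid synthesis is a separate pathway that makes the precursor of lipoic acid. Of its 8 genes tested, 6 rose and 1 fell with full-length NFIA at day 7, against 31.3% and 41.1% of all genes, with a median of 0.48 and none more than 3-fold. Cbr4 rose by 0.87 ± 0.07 and Oxsm by 0.67 ± 0.08. With the mutant 3 rose, against 21.3%, with a median of 0.19. At day 0, 2 rose and 1 fell with full-length NFIA, both below the shares of all genes (37.7% and 35.6%), with a median of 0.01.

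The marker lists also differed from control cells at day 7. Of 11 muscle markers, 11 fell with full-length NFIA at day 7, against 41.1% of all genes, with a median of -2.05. Myh8 fell by 3.86 ± 0.13 and Tnnt3 by 3.13 ± 0.12, both genes of the contractile apparatus. Of 10 adipocyte markers tested (of 12), Cidea was below 0.5 FPKM in control and Δpro#3 cells and had to differ. The other 9 all rose, against 31.3%. The median over the 10, with Cidea, was 5.20. In the same comparison Plin1, of the lipid droplet coat, rose by 6.50 ± 0.29 and Fabp4, the fatty acid binding protein of adipocytes, by 6.23 ± 0.46. With the mutant 5 muscle markers rose, against 21.3%, and 4 fell, against 27.5%, and 8 adipocyte markers of 10 rose, with a median of 1.20. The 8 and the median include replicate 1 of the Δpro#3 cells and were not worked out without it. The adipocyte sum there was 2056 FPKM, against 634 and 746 in replicates 2 and 3 and 361 to 398 in control cells. On forskolin in full-length NFIA cells 1 adipocyte marker rose and 2 fell of 10, and 4 of the 11 muscle markers fell, against 13.9% of all genes that rose and 41.5% that fell. The list of adipocyte genes summed to 13068 to 13798 FPKM there, against 13605 to 15124 without forskolin.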

How the data were processed

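RNA-seq of polyadenylated RNA (TruSeq Stranded mRNA kit) from C2C12 cells was used, with groups taken from the sample labels. The authors aligned reads with STAR 2.5.3a to mm9, discarded reads with more than 1 match, took the fragments of each gene's own strand and deposited them as FPKM, with no scaling between samples. The gene annotation is not given in the sources used here. The 10 genes were matched by symbol. They, the gene lists and the tests were chosen with earlier results of these data known.

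Fragments were worked back from FPKM and gene length (100% of the values whole, within 0.05 fragments). R 4.3.3 with limma 3.58.1 was fitted to log2(FPKM + 1) with 1 mean per group and moderation with a trend, over genes whose mean reached 0.5 FPKM, in the 9 samples of a time point or the 18 samples of 2 time points. P-values are 2-sided and Benjamini-Hochberg adjusted over all genes tested. "Rose" and "fell" mean an adjusted p under 0.05, and "more than 3-fold" adds that fold in FPKM + 1, a scale that understates changes of low genes. On simulated data for full-length NFIA against control at day 7, 93% of 4-fold genes were called, among 12313 genes in the test. The changed genes were drawn from those with a mean of 5 FPKM or more. The rate thus does not cover lower genes such as Acacb and Mlxipl. The simulated spread was a fixed value and was not taken from these replicates. The rule named all 10 genes, Nfia, the 2 genes of each list with the largest change with full-length NFIA at day 7, and the 3 genes most alike to Fasn, Scd1, Acacb and Mlxipl. Of the lists, 6 genes were not found under their names and are not used here. Alternatives were another pseudocount, median-ratio scaling, other filters, no trend, the replicate number as a block, limma-voom on fragments, only the 2 groups compared, and each library left out. Figures used Python 3.11.15 and matplotlib 3.10.9. Depth was 9567769 to 27230965 fragments per sample. A Mlxipl count of 0 allows 0.0297 to 0.0713 FPKM in the day 0 libraries, by depth.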

Additional observations from a re-analysis of the deposited data

Results flagged for a closer look

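The change from day 0 to day 7 and the response to forskolin differed between kinds of cells for several genes, by the interaction term of limma (Benjamini-Hochberg adjusted over all genes), and each such difference of log2 changes is given here. For the change from day 0 to day 7, full-length NFIA minus control was 1.98 for Acly, 1.42 for Acaca, 1.54 for Acacb, 3.07 for Fasn, 3.04 for Scd1, 0.30 for Scd2, 1.12 for Elovl6, 3.07 for Me1 and 2.33 for Srebf1, with adjusted p from 7.6e-15 to 0.00027. The Δpro#3 mutant minus full-length NFIA was -2.16 for Acly, -1.72 for Acaca, -1.04 for Acacb, -3.29 for Fasn, -3.80 for Scd1, -1.15 for Scd2, -1.22 for Elovl6, -2.73 for Me1 and -2.43 for Srebf1, with adjusted p from 5.4e-14 to 5.6e-05. The mutant minus control was -0.30 for Acaca, 0.49 for Acacb, -0.76 for Scd1, -0.85 for Scd2 and 0.33 for Me1, with adjusted p from 8e-09 to 0.027. Acacb was below 0.5 FPKM in control cells at day 0 and entered these fits through other groups. Its differences from control cells are thus descriptions and were left out of the counts in the Results. Its difference for the mutant minus control was 0.24 with a pseudocount of 0.1 (adjusted p = 0.53) and -0.04 by limma-voom (adjusted p = 0.93). That for Acaca was lost under median-ratio scaling (adjusted p = 0.075) and without any of 4 libraries.

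For the response to forskolin at day 7, full-length NFIA minus control was -0.56 for Acly, -0.73 for Acaca, -1.39 for Fasn, -0.62 for Scd1, -0.29 for Scd2 and -1.55 for Srebf1, with adjusted p from 3.9e-08 to 0.034. Those for Scd1 and Scd2 were lost under median-ratio scaling (adjusted p = 0.075 and 0.12), and without any of 7 and any of 9 libraries, respectively. The mutant minus full-length NFIA was 0.69 for Acly, 0.78 for Acaca, 1.32 for Fasn and 1.41 for Srebf1, with adjusted p from 2e-07 to 0.0022.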

How the results depend on the processing

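Counts of genes past a threshold stayed within 1.5 times in 760 of 768 settings run. The number more than 3-fold was 1 (Acacb) in place of 0 with a pseudocount of 0.1 and with limma-voom, for full-length NFIA against control at day 0, the Δpro#3 mutant against control at day 0 and the mutant against control at day 7. Leaving out 1 library at a time, the number past an adjusted p of 0.05 reached 5 in place of 3 for the forskolin response of Δpro#3 cells and ranged from 3 to 7 in place of 5 for the day 0 to day 7 change of mutant minus control cells. These 5 include Acacb, which was below 0.5 FPKM in control cells at day 0. Values of single genes kept direction and call in 3153 of 3230 settings, and 1 reversed: Acacb in the day 0 to day 7 change of mutant minus control, at -0.0442 by limma-voom on fragments. Some settings left out a library of a group outside the comparison. There the log2 change cannot move and only its spread can, so these totals overstate how often a value was put to a test. The fall of Me1 with the mutant at day 0 was lost with the replicate number as a block (log2 change -0.07, adjusted p = 0.069); the block changed no other call. Same numbers did not pair the samples, as the deviations of same-numbered samples correlated by 0.0139, -0.0314 and -0.00195 on average at day 0, day 7 and day 7 with forskolin, and 4, 3 and 3 of 9 samples correlated best with their own number. Fasn with the mutant at day 7 (0.51) was lost in several settings, among them no filter on low values (adjusted p = 0.085) and the 2 groups alone (0.075). Calls were also gained, such as Scd1 with the mutant at day 7 under median-ratio scaling (0.46), with a minimum of 5 FPKM (0.40) and by limma-voom (0.41). The causes were not tested. Genes below 0.5 FPKM, such as Mlxipl at day 0, rest on few fragments.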
